A study of Mus musculus with 11 samples.

Results

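The collagens described here build the finer structures of the dermal matrix around the thick fibrils: the microfilaments of collagen VI, the network-forming collagen VIII, the fibril-associated collagens XII, XIV and XVI, the anchoring fibrils of collagen VII and the membrane-spanning collagen XXIII. They were chosen by gene symbol as a list of 10 genes, Col6a1, Col6a2, Col6a3, Col6a5, Col7a1, Col8a1, Col12a1, Col14a1, Col16a1 and Col23a1, and all 10 were found among the 47643 genes of the expression table. All 10 also belonged to the 11979 genes that passed a filter on low values (at least 1 RPKM in at least 2 libraries) and were tested. Levels are RPKM, that is, reads scaled by the exon length assigned to the gene and by the mapped total of the library. An order of levels between genes therefore depends on these lengths as well as on the reads.

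Fibroblasts were taken from the back skin of mice of a mixed strain background, 50% CD-1 and the rest C57Bl/6, at 9 to 12 weeks of age. Act mice carry a transgene for human INHBA, the subunit of the TGF-beta family ligand activin A, driven by the keratin 14 promoter, which is active in keratinocytes, and WT littermates lack it. Unwounded normal skin (NS) was compared with excisional wounds 5 days after injury (5dw). The WT NS, Act NS and WT 5dw groups had 3 libraries each and the Act 5dw group had 2 (replicates 1 and 3, since the second did not pass the submitters' quality control), and each library held RNA pooled from 3 animals. The cells of all 4 groups were sorted live as CD45-CD140a+, with CD11b and F4/80 as further negative gates. The submitters' sample descriptions also name CD3 as a negative gate, and the paper's definition of the sorted cells does not. CD140a is the product of Pdgfra, a surface receptor of fibroblasts.

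Collagen VI chains join as trimers and assemble outside the cell into beaded microfilaments that run close to cells and basement membranes. Fibril-associated collagens with interrupted triple helices (FACITs) do not form thick fibrils themselves but sit on the surface of collagen I fibrils and link them to their surroundings. Collagen VII forms the anchoring fibrils that fix the epidermal basement membrane to the dermis, and its loss causes a blistering skin disease. During skin repair, fibroblasts fill the wound with granulation tissue, a provisional matrix whose collagens are laid down anew.

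The libraries held 18649320 to 39702139 mapped reads, as worked out from the table. All 12 fibroblast markers examined were above 1 RPKM in every group mean, and Pdgfra lay between 49.8 and 65.3 RPKM in NS and between 29.6 and 37.3 RPKM in 5dw. Inhba was at 3.40 to 6.93 RPKM in WT NS and at 36.3 to 91.2 RPKM in Act NS. In wounds it was at 15.8 to 24.0 RPKM in WT and at 26.2 to 50.2 RPKM in Act, a log2FC of 0.86 (SE 0.41, limma adjusted p 1), and whether reads of the human transgene were counted on the mouse gene was not tested. Keratinocyte markers were present in the sorted cells: the summed RPKM of 14 such genes was 1286 to 4852 in NS and 176 to 1550 in 5dw. Of the pan-immune markers, 7 of the 9 found were under 1 RPKM in each group mean, and Cd3e, a T cell receptor complex gene, was the highest. It was at 2.94 to 33.9 RPKM in NS and at 55.5 to 105 RPKM in 5dw, with a log2FC of 3.37 (SE 0.72, limma adjusted p 0.00238) in WT and 2.44 (SE 0.80, adjusted p 0.0284) in Act. Cd68, a macrophage gene and the other pan-immune marker tested, had a log2FC of -0.38 (SE 0.21, adjusted p 0.146) in WT and was called lower in Act (-0.72, SE 0.24, adjusted p 0.0299). Of the pan-immune markers under 1 RPKM, Ptprc was at 0.0498 RPKM or less and Coro1a at 0.199 or less in every library. Which cells the Cd3e reads came from was not tested. The part of keratinocytes and immune cells in the wound results was not tested either. Replicate 1 of WT NS and replicate 1 of Act NS stood apart from the other NS libraries on the second principal component (scores 22.4 and 35.8 against -18.1 to -7.42), so results that rest on them are also given without them.

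In WT mice, 5 of the 10 collagen genes were higher in 5dw than in NS and 2 were lower, when tested with limma across all genes with Benjamini-Hochberg adjustment and called at an adjusted p under 0.05. Among all genes tested in WT 5dw against WT NS, 9.45% were called higher and 48.8% lower, so the wound samples as a whole had more genes with a lower RPKM. In Act mice, 5 were called higher and 1 lower, where the background was 9.04% higher and 36.5% lower. Col12a1, Col8a1, Col7a1 and Col6a2 were called higher in both genotypes and Col23a1 lower in both. The median log2FC of the 10 genes was 0.47 in WT and 0.47 in Act, against -0.40 and -0.31 over all tested genes. Both wound comparisons use their own NS libraries, and the fit shares its estimate of the spread over all 11. After median-ratio scaling of the libraries, the median of all genes moved to -0.06 in both comparisons, and the calls over all genes split into 2321 higher and 3027 lower in WT, compared with 1132 and 5846 without it. In Act mice the split became 2089 and 2818, compared with 1083 and 4376. With that scaling, all 10 collagen genes were called in WT and 9 in Act, and each kept its direction.

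**Figure D1:**
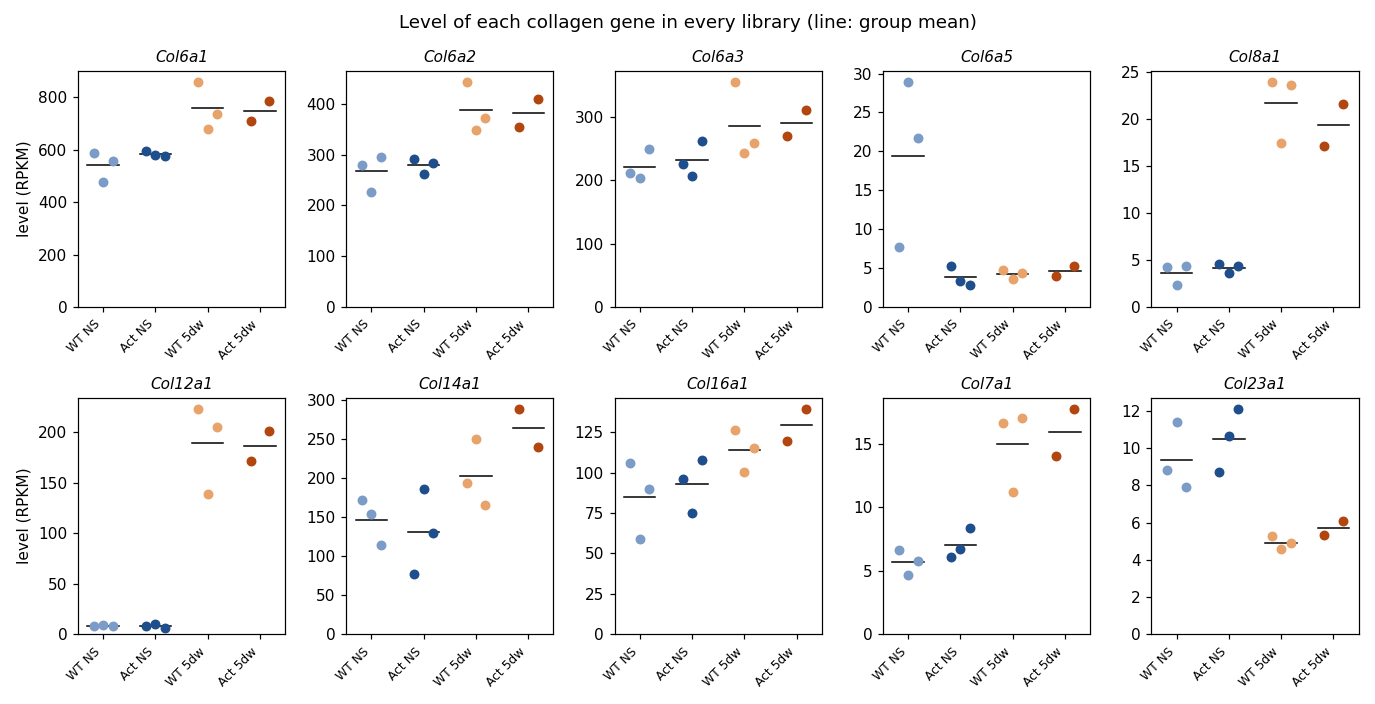
Level (RPKM, linear axes from 0) of each of the 10 collagen genes in every library of WT NS, Act NS, WT 5dw and Act 5dw, with 1 point per library and a line at the group mean. Col12a1 lies between 6.53 and 10.2 RPKM in the 6 NS libraries and between 139 and 223 RPKM in the 5 of 5dw, while Col23a1 lies lower in every 5dw library than in any NS library.

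In normal skin the 3 classical collagen VI chains led the order of the levels. Mean RPKM over the 6 NS libraries was 563 for Col6a1, 274 for Col6a2, 226 for Col6a3, 139 for Col14a1 and 89.0 for Col16a1. A gap separated these from the remaining 5, which followed as Col6a5 (11.6), Col23a1 (9.93), Col12a1 (8.38), Col7a1 (6.37) and Col8a1 (3.93). Neighbours in this order whose ranges over libraries overlapped were Col6a2 with Col6a3, Col14a1 with Col16a1, and each step from Col6a5 down to Col7a1. The place of Col6a5 joins unlike groups, since its mean was 19.4 RPKM in WT NS and 3.81 RPKM in Act NS, the lowest of the 10 genes there, and it was above Col23a1 in 2 of the 6 libraries. In 5dw the first 4 places by mean were the same, and Col12a1 followed in the fifth place with a mean of 188 RPKM, in a range that overlapped that of Col14a1 (227). The ranges of Col6a3 (287) and Col14a1 overlapped as well there, with Col6a3 the higher in 3 of the 5 libraries, as did those of Col6a2 with Col6a3, Col8a1 with Col7a1 and Col23a1 with Col6a5. Col16a1 (120), Col8a1 (20.8), Col7a1 (15.3), Col23a1 (5.23) and Col6a5 (4.40) came next.

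Collagen VI was the most abundant of these matrix proteins at the RNA level, and its chains moved by modest amounts. Col6a1 encodes the alpha1 chain (chr10:76708792-76726168, minus strand, GRCm38). Its level was 588, 479 and 559 RPKM in WT NS, 595, 580.2 and 576 in Act NS, 859, 680.3 and 738 in WT 5dw, with 708 and 787 for Act 5dw. Every 5dw library was above every NS library. The log2FC was 0.48 (SE 0.14, limma adjusted p 0.0122) in WT and 0.35 (SE 0.16, adjusted p 0.0849) in Act, so the call was made only in WT, and the difference between the genotypes was not called. Without WT 5dw replicate 1 the WT value was 0.39 (adjusted p 0.0601).

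Col6a2, the alpha2 chain, lies beside Col6a1 on the same strand, with 85161 bases between the annotated genes. It was at 280.0, 227 and 295 RPKM in WT NS, 292, 263 and 284 in Act NS, 443, 349 and 372 in WT 5dw, with 354 and 409 for Act 5dw. Again the 5 wound libraries lay above the 6 of normal skin. The log2FC was 0.54 in WT (SE 0.15, limma adjusted p 0.0102) and 0.45 in Act (SE 0.17, adjusted p 0.0476). The call in Act mice was close to the threshold and was kept in 8 of 22 other settings, and it was lost without Act 5dw replicate 3 (0.34, adjusted p 0.254), Act NS replicate 2 (0.40, adjusted p 0.112), Act 5dw replicate 1 (0.55, adjusted p 0.0737) or Act NS replicate 3 (0.46, adjusted p 0.0864), as well as without WT NS replicate 1 or 3 or any WT 5dw library. With the replicate number as a block it was 0.37 (adjusted p 0.0749).

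Col6a3 encodes the large alpha3 chain, whose carboxy-terminal piece is cut off and released. Its level was 211, 203 and 249 RPKM in WT NS, 225, 206 and 262 in Act NS, 355, 243 and 258 in WT 5dw, with 269.7 and 310.3 for Act 5dw. The WT ranges overlapped, because 2 of the 3 WT 5dw libraries lay near the highest NS library. The log2FC was 0.35 (SE 0.17, limma adjusted p 0.0986) in WT and 0.33 (SE 0.19, adjusted p 0.179) in Act, neither past the threshold, and the WT value was 0.19 (adjusted p 0.376) without WT 5dw replicate 1. In both it became a call after median-ratio scaling, at 0.74 (adjusted p 0.00408) and 0.62 (adjusted p 0.0189).

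The proportions of these 3 chains were close to each other in all libraries. Of their summed RPKM, Col6a1 made up 50.7 to 55.3% in NS and 51.8 to 54.0% in 5dw. Col6a2 took 25.0 to 26.7% and 26.6 to 27.4%, and Col6a3 took 19.6 to 23.3% and 18.9 to 21.4%. These shares rest on exon lengths of 4380 bases for Col6a1, 8326 for Col6a2 and 11963 for Col6a3. In WT NS replicate 1 the reads of the 3 genes were 65015, 58798 and 63801. The size of a share therefore depends on the length used, and the comparison between libraries does not. Across the 11 libraries, the log2 levels of Col6a1 and Col6a2 had a Pearson r of 0.982, and the deviations of the libraries from their own group means had an r of 0.927. For Col6a3 the values were 0.852 with Col6a1 and 0.897 with Col6a2. These are descriptions over libraries that share the wound and normal skin difference. Each of Col6a1 and Col6a2 was the gene most like the other among all tested genes.

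Promoter windows of 300 bases (250 bases before to 50 after the annotated start) are shown for the collagen VI chains that kept their proportions, because they let the sequences in front of neighbouring and of separate chains be compared. They come from RefSeq on GRCm38.p6, run 5′ to 3′ along the gene, and were found for 8 of the 10 genes, not for Col12a1 and Col14a1. Capitals mark matches on either strand to GTCTG (a SMAD box, bound by the factors that activin and TGF-beta receptors use), TGANTCA (an AP-1 site) or TATAAA (the core element of many promoters), which do not overlap each other here. Col6a2 has 2 annotated starts, and the window of the downstream one is given.
Col6a1, chr10:76725995-76726294, minus strand: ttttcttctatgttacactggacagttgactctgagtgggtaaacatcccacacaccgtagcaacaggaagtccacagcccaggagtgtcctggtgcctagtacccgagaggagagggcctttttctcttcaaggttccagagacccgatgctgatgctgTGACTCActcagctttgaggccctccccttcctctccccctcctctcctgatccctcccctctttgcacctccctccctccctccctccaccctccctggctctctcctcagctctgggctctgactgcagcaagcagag
Col6a2, chr10:76623355-76623654, minus strand: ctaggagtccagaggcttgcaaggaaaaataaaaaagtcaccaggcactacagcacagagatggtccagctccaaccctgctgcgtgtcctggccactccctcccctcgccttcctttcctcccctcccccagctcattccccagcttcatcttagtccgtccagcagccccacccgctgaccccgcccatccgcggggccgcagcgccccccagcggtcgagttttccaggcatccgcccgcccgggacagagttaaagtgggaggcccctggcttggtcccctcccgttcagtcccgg
Col6a3, chr1:90843922-90844221, minus strand: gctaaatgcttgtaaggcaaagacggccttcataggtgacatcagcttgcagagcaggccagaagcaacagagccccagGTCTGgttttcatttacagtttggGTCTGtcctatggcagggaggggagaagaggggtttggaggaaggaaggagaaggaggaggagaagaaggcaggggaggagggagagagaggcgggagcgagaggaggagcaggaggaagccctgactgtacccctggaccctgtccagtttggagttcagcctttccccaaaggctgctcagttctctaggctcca
The window of Col6a1 holds 1 AP-1 match, 90 bases before the start, and no match to the SMAD box. The Col6a2 window shown holds none of the motifs, and its other window holds 1 match to the SMAD box. Col6a3 holds 2 matches to the SMAD box. Over 32851 mouse promoter windows of the same length, 49.6% hold the SMAD box, 7.81% the AP-1 site and 13.6% the core element, and each match is a description only.

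**Figure D2:**
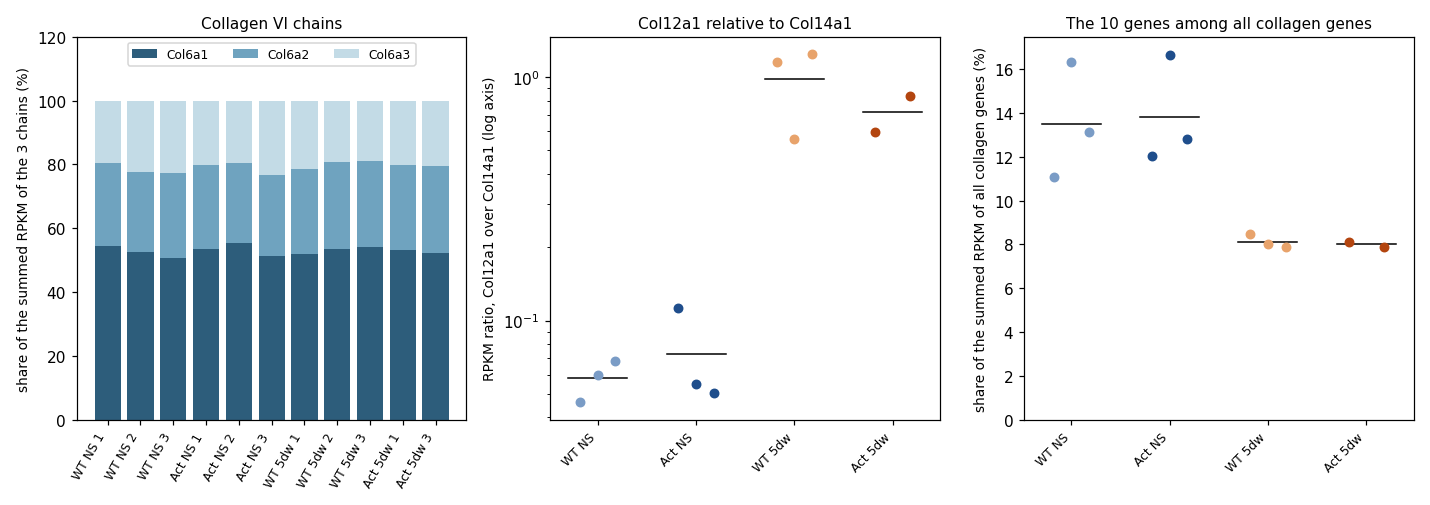
Left, share (%) of the summed RPKM of Col6a1, Col6a2 and Col6a3 in each library, as stacked bars. Middle, RPKM ratio of Col12a1 to Col14a1 on a log axis, and right, share (%) of the 10 genes in the summed RPKM of all collagen genes, with 1 point per library and a line at the group mean. The collagen VI shares stay within a few percentage points, whereas the ratio moves from 0.0462 to 0.112 in NS to 0.558 to 1.24 in 5dw.

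Col6a5, one of the long chains that can take the place of alpha3, did not follow the other collagen VI genes. It was highest in WT normal skin, at 7.74, 28.9 and 21.7 RPKM, and was at 5.26, 3.35 and 2.81 in Act NS. In 5dw it was at 4.78, 3.62 and 4.39 RPKM in WT and at 3.94 and 5.27 in Act. All WT NS libraries lay above all other libraries, with WT NS replicate 1 the lowest of the 3. Col6a5 fell in WT wounds by 1.89 on the log2 scale (SE 0.39, limma adjusted p 0.00202), and in Act wounds the log2FC was 0.27 (SE 0.43, adjusted p 0.631). In normal skin, Act against WT gave -2.07 (SE 0.39, 95% interval -2.92 to -1.21), with an unadjusted p of 0.000257 in the limma fit and an adjusted p of 0.342 over all genes, so it was not called. The interaction of wounding and genotype was 2.16 (SE 0.58, unadjusted p 0.00354, limma adjusted p 0.808).

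Col6a5 was called between genotypes in normal skin only where WT NS replicate 1, a library that stood apart, was left out. Without WT NS replicate 1, Act NS minus WT NS was -2.61 (limma adjusted p 0.00475). Without this library and Act NS replicate 1 it was -2.84 (adjusted p 0.00261), and the interaction was 2.94 (adjusted p 0.0243). With only Act NS replicate 1 left out, Act NS minus WT NS was -2.295 (limma adjusted p 0.302) and was not called. The value in WT wounds was called with and without each library, from -2.43 (without WT NS replicate 1) to -1.51 (without WT NS replicate 2). Of the 31-base stretches of Col6a5, 3.99% also occur in Col6a6, so a small part of the reads could be assigned to either gene. Col6a6, a chain of the same kind, was at 19.6, 24.2 and 19.9 RPKM in WT NS and at 14.1, 24.3 and 17.0 in Act NS, 2 ranges that overlap. The ratio of Col6a5 to Col6a6 was 0.394 to 1.20 in WT NS and 0.138 to 0.372 in Act NS.

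The genes most like Col6a5 over the 11 libraries were Pnpla5, a lipid hydrolase gene (Pearson r 0.938), and Scd3, a stearoyl-CoA desaturase gene known from the sebaceous gland (r 0.917). Pnpla5 was at 0.374, 1.08 and 1.13 RPKM in WT NS and at or below 0.0980 RPKM in each of the other libraries. Scd3 was at 0.788, 3.29 and 1.83 RPKM in WT NS, at 0.0361, 0.0837 and 0.314 in Act NS, and at or below 0.0871 in 5dw. Both were picked for their likeness to Col6a5 and reached 1 RPKM in WT NS replicates 2 and 3 alone, so this pattern restates the choice. Because of Scd3, 11 sebaceous gland genes were examined, a list chosen after these values were seen. Their summed RPKM was 145.0 to 209.5 in WT NS, 118 to 263 in Act NS and 58.4 to 66.3 in 5dw, most of it from Mgst1 and Krt79, which are not restricted to that gland. For 7 of the 11, Krt79 and Mgst1 among them, the ranges of WT NS and Act NS overlapped. The other 4 were lower in each Act NS library than in any of WT NS. Among the 8 listed genes that were tested, 3 were lower in this way. Of all tested genes 7.98% were, while 0.0167% were called between these groups. The 4 were Scd3, which prompted the list, the wax ester synthase genes Awat1 (0.799 to 2.97 RPKM in WT NS, 0.0301 to 0.626 in Act NS) and Awat2 (0.504 to 1.21, 0.256 to 0.488), and the fatty acyl-CoA reductase gene Far2 (2.87 to 6.76, 0.581 to 2.65). Like Scd3, Awat1 reached 1 RPKM in WT NS replicates 2 and 3 alone, so it passed the filter through the group where it was higher. Awat2 reached it in WT NS replicate 2 alone and was not tested. None of the 11 was at 0 in any NS library, and 5, 2 and 3 of them were under 1 RPKM in WT NS against 8, 4 and 5 in Act NS. The part of such cells in the Col6a5 difference was not tested, and a lower share of one cell type cannot be told apart from less RNA per cell in bulk libraries.

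**Figure D3:**
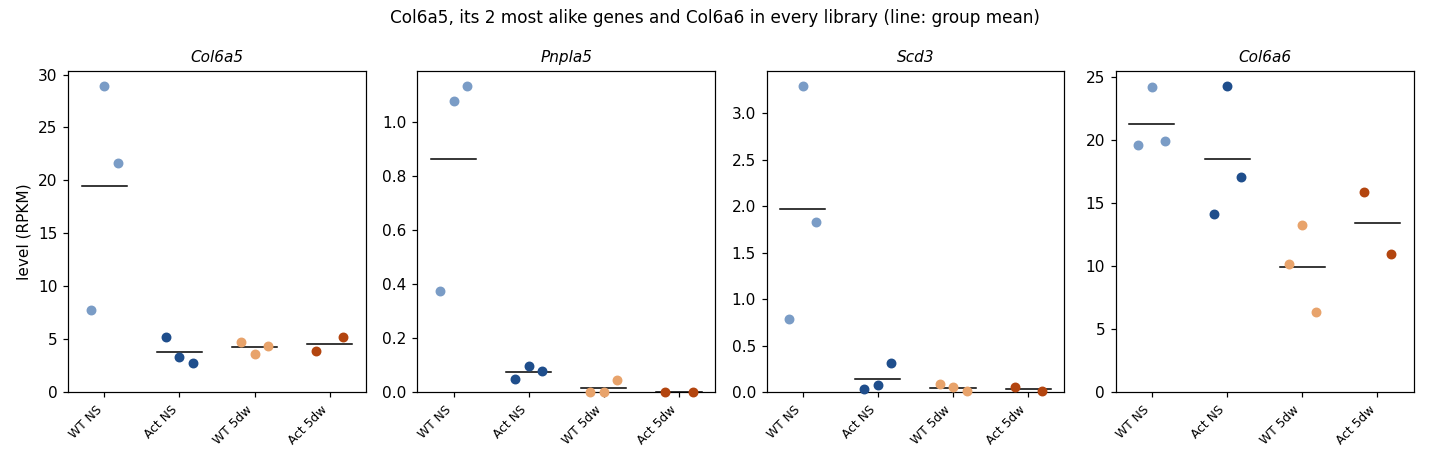
Level (RPKM, linear axes from 0) of Col6a5, of Pnpla5 and Scd3, the 2 genes most like it over the 11 libraries, and of Col6a6, with 1 point per library and a line at the group mean. Col6a5, Pnpla5 and Scd3 are highest in the 3 WT NS libraries, and Col6a6 has overlapping ranges in WT NS and Act NS.

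Collagen VIII is a short-chain collagen that forms open networks and is known from vessel walls and from the eye. Col8a1 (chr16:57624258-57754737, minus strand) had the lowest mean level of the 10 genes over the 6 NS libraries, at 4.28, 2.33 and 4.41 RPKM in WT and 4.62, 3.62 and 4.32 in Act. In wounds it was at 23.9, 17.5 and 23.6 RPKM in WT and at 17.2 and 21.6 in Act. No wound library overlapped with normal skin. Col8a1 rose 5.42-fold in WT (log2FC 2.44, SE 0.22, limma adjusted p 1.23e-05) and 4.24-fold in Act (2.08, SE 0.24, adjusted p 0.000101). Col8a2, the chain with which it can assemble, was low in all libraries (1.51 to 3.63 RPKM in NS, 2.02 to 3.54 in 5dw) and was not called in either genotype. The gene most like Col8a1 was Fbln2, which encodes the matrix glycoprotein fibulin-2 (r 0.991), at 128 to 177 RPKM in NS and 311 to 443 in 5dw.

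The promoter window of Col8a1 is shown as that of the most induced gene for which the table had an entry.
Col8a1, chr16:57754688-57754987, minus strand: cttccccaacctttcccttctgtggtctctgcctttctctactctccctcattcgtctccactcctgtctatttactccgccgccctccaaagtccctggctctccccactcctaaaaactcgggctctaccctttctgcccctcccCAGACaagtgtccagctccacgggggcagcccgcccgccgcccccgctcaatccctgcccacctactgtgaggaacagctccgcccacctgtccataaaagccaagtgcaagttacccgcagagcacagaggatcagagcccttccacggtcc
It holds 1 match to the SMAD box, on the opposite strand (capitals), with its first base 103 bases before the start.

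Col12a1 had the largest wound difference of the 10 genes in both genotypes. Collagen XII, a FACIT that binds decorin and tenascin-X beside collagen I, was at 7.91, 9.20 and 7.82 RPKM in WT NS and at 8.65, 10.2 and 6.53 in Act NS. In wounds its level was 223, 139 and 205 RPKM in WT and 171 and 201 in Act. WT 5dw replicate 2 was the lowest of the wound libraries and still far above all of normal skin. The rise was 21.1-fold in both genotypes, with a log2FC of 4.40 (SE 0.20, limma adjusted p 3.47e-07) in WT and 4.40 (SE 0.22, adjusted p 1.02e-06) in Act. Col12a1 went from 0.469 to 0.780% of the summed RPKM of the 10 genes in NS to 7.74 to 10.8% in 5dw. Its rank among all genes of the table, by mean RPKM, was 4021 in NS and 209 in 5dw. The most similar profile was that of Prss35, a serine protease family gene (r 0.996), at 0.177 to 0.675 RPKM in NS and 13.2 to 18.7 in 5dw.

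Col14a1, the closest relative of Col12a1 among these genes, started from a high level and changed less. It was at 171, 154 and 115 RPKM in WT NS, 76.9, 186 and 129 in Act NS, 193, 249.5 and 165 in WT 5dw, with 288 and 239.9 for Act 5dw. The WT ranges overlapped, while both Act 5dw libraries lay above all of Act NS. The log2FC was 0.46 (SE 0.29, limma adjusted p 0.189) in WT and 1.10 (SE 0.33, adjusted p 0.0181) in Act, with WT values of 0.30 without WT NS replicate 3 or WT 5dw replicate 2, and the interaction of 0.63 (SE 0.44, adjusted p 0.999, 95% interval -0.33 to 1.59) does not show that the genotypes differed. The call in Act was lost without Act 5dw replicate 1 (0.97, adjusted p 0.110) or Act 5dw replicate 3 (1.23, adjusted p 0.0567). It was smaller without Act NS replicate 1, which held the lowest value (0.76, adjusted p 0.0342). The RPKM ratio of Col12a1 to Col14a1 was 0.0462 to 0.112 in NS, with Act NS replicate 1 the highest, and 0.558 to 1.24 in 5dw. By RPKM, Col14a1 therefore exceeded Col12a1 in every NS library and in 3 of the 5 wound libraries.

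Collagen XVI, a FACIT found near fibrillin microfibrils and at the dermal-epidermal border, had wide ranges in normal skin. Col16a1 was at 106, 58.8 and 90.2 RPKM in WT NS, 96.2, 75.1 and 108 in Act NS, 126, 101 and 115 in WT 5dw, with 119.5 and 139 for Act 5dw. WT NS replicate 2 was the lowest library, and the WT groups overlapped slightly. The log2FC was 0.46 (SE 0.22, limma adjusted p 0.0901) in WT and 0.49 (SE 0.24, adjusted p 0.123) in Act. Taking the shared replicate number as a pairing, in a fit with a replicate block, the WT value was 0.46 with an adjusted p of 0.0229 and was called. It was also called without WT NS replicate 1 (0.64, adjusted p 0.0310), and it fell to 0.22 without WT NS replicate 2 (adjusted p 0.336).

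Col7a1, the gene of the anchoring fibril, rose in wound fibroblasts from a low level. It was at 6.61, 4.65 and 5.79 RPKM in WT NS, 6.11, 6.68 and 8.37 in Act NS, 16.7, 11.2 and 17.0 in WT 5dw, with 14.1 and 17.7 for Act 5dw. The wound and normal skin ranges did not overlap. The rise was 2.48-fold in WT (log2FC 1.31, SE 0.19, limma adjusted p 0.000284) and 2.17-fold in Act (1.12, SE 0.22, adjusted p 0.00200). Keratinocytes also make collagen VII. The summed RPKM of the keratinocyte markers was 1286 or more in each NS library and 176, 358, 395, 474 and 1550 in those of 5dw. Of the 14 markers, 11 were called lower in each genotype and 1 higher in WT, the wound keratin gene Krt6a (3.10, SE 0.67, adjusted p 0.00272), where 48.8% of all tested genes were called lower in WT, 36.5% lower in Act and 9.45% higher in WT. Of the 14, Krt15, Epcam and Trp63 passed the filter through NS alone. The part of keratinocyte RNA in the Col7a1 result was not tested. Col17a1, a transmembrane collagen of keratinocyte hemidesmosomes, fell by 2.30 on the log2 scale in WT (SE 0.56, adjusted p 0.00529) and by 2.66 in Act (SE 0.63, adjusted p 0.00597).

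Col23a1, a transmembrane collagen whose outer part can be shed, was the one gene of the 10 that fell in both genotypes. It was at 8.82, 11.4 and 7.91 RPKM in WT NS, 8.74, 10.7 and 12.1 in Act NS, 5.30, 4.55 and 4.89 in WT 5dw, with 5.31 and 6.10 for Act 5dw. All 5 wound libraries were below all 6 of normal skin. The log2FC was -0.85 (SE 0.16, limma adjusted p 0.00106) in WT and -0.82 (SE 0.18, adjusted p 0.00354) in Act, and it was called in each of 22 other settings in both, at -0.49 and -0.55 after median-ratio scaling. The keratinocyte sum was lower in the wounds as well (176 to 1550, against 1286 to 4852 in NS), and the part of keratinocyte RNA in this result was not tested. Frzb, which encodes a secreted inhibitor of Wnt ligands, had the most similar profile (r 0.983), at 0.530 to 1.80 RPKM in NS and 0.0797 to 0.205 in 5dw.

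The windows of Col7a1 and Col23a1 are shown side by side as those of a gene that rose and a gene that fell.
Col7a1, chr9:108953336-108953635, plus strand: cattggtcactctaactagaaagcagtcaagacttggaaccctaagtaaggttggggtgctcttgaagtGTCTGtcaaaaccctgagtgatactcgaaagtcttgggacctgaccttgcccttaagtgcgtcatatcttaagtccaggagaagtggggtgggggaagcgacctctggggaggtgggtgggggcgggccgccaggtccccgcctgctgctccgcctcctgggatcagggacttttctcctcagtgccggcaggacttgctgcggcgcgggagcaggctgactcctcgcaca
Col23a1, chr11:51289670-51289969, plus strand: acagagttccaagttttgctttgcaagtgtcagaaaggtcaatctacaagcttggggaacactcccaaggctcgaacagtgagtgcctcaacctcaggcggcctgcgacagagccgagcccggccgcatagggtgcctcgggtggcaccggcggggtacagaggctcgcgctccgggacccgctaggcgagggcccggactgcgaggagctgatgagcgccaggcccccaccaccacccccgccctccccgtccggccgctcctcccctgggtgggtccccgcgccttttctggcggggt
The Col7a1 window holds 1 match to the SMAD box (capitals), 181 bases before the start, and that of Col23a1 holds none of the 3 motifs. The windows of Col6a5 and Col16a1, not printed, hold none either.

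For the remaining genes the most similar profiles over the 11 libraries were, in the order of likeness, Ttyh3 after Col6a2 for Col6a1 (r 0.973), Arhgap31 after Col6a1 for Col6a2 (r 0.977), and Arhgap31 (r 0.910) and Myadm (r 0.906) for Col6a3. For Col7a1 they were Dusp9 (r 0.981) and Chst2 (r 0.979), and for Col14a1 Ptprj (r 0.977) and Plscr1 (r 0.959). Tmem132a (r 0.925) and Sept9 (r 0.918) were most like Col16a1. Second in likeness were Hspb7 for Col8a1 (r 0.987), Plekhg4 for Col12a1 (r 0.996) and Crem for Col23a1 (r 0.980). These r values describe libraries that all carry the wound and normal skin difference.

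**Figure D4:**
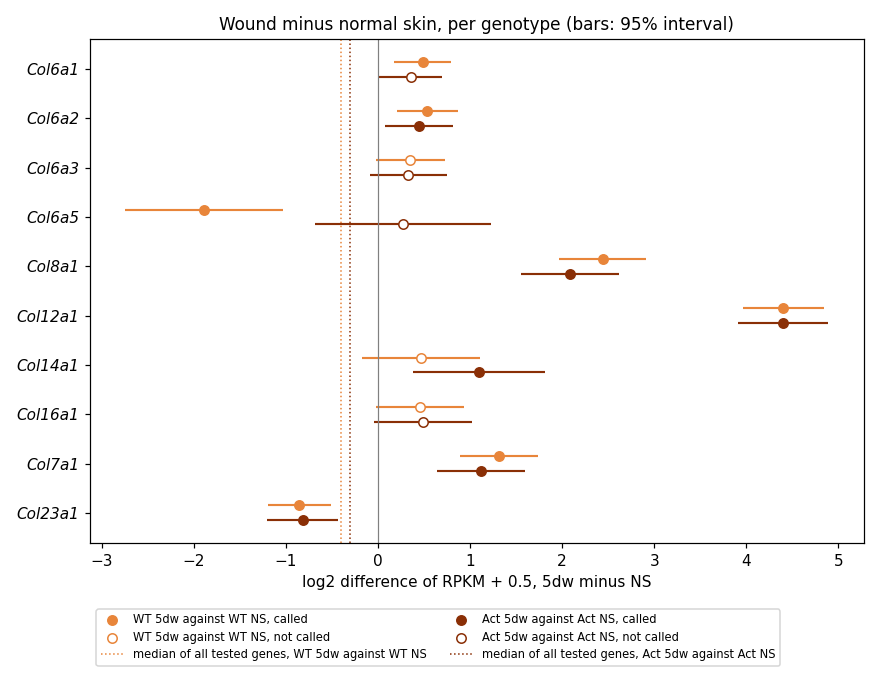
Difference of log2(RPKM + 0.5) between 5dw and NS for the 10 genes in WT and Act mice, with 95% intervals from the limma fit. Filled points were called at an adjusted p under 0.05 and dotted lines mark the median of all tested genes (-0.40 in WT and -0.31 in Act). Col12a1, Col8a1 and Col7a1 lie farthest to the right and Col6a5 differs in position between the genotypes.

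Whether the excess of activin altered these collagen genes was addressed by comparing Act with WT within each tissue. In normal skin 0 of the 10 were called by limma, where 0.0167% of all tested genes were called, and 1 of the 10 (Col6a5) had an unadjusted p under 0.05. Apart from Col6a5, the log2FC ran from -0.24 for Col14a1 (95% interval -0.88 to 0.41) to 0.29 for Col7a1 (-0.14 to 0.71). In wounds 0 were called against a background of 0.0334%, and 0 had an unadjusted p under 0.05. The wound values ran from -0.15 for Col8a1 (95% interval -0.69 to 0.38) to 0.40 for Col14a1 (-0.32 to 1.11). Col12a1 was at 0.01 (-0.43 to 0.45) in normal skin and 0.00 (-0.49 to 0.49) in wounds. Both Act 5dw libraries had a Col23a1 level above those of WT 5dw, by a margin of less than the spread within the groups (log2FC 0.19, SE 0.18, adjusted p 1). In the interaction 0 were called, with a background of 0.0% of all genes, and 1 of the 10 (Col6a5) had an unadjusted p under 0.05. limma-voom on the recovered reads also called 0 of the 10 in each of these 3 comparisons. The paper lists Col7a1 among its activin-regulated matrix genes by another measure. It ranked genes by the ratio of the log fold changes of Act 5dw and WT 5dw, both over WT NS. That ratio was not taken here. Between the wounds of the genotypes, Col7a1 had a log2FC of 0.10 (95% interval -0.38 to 0.57).

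**Figure D5:**
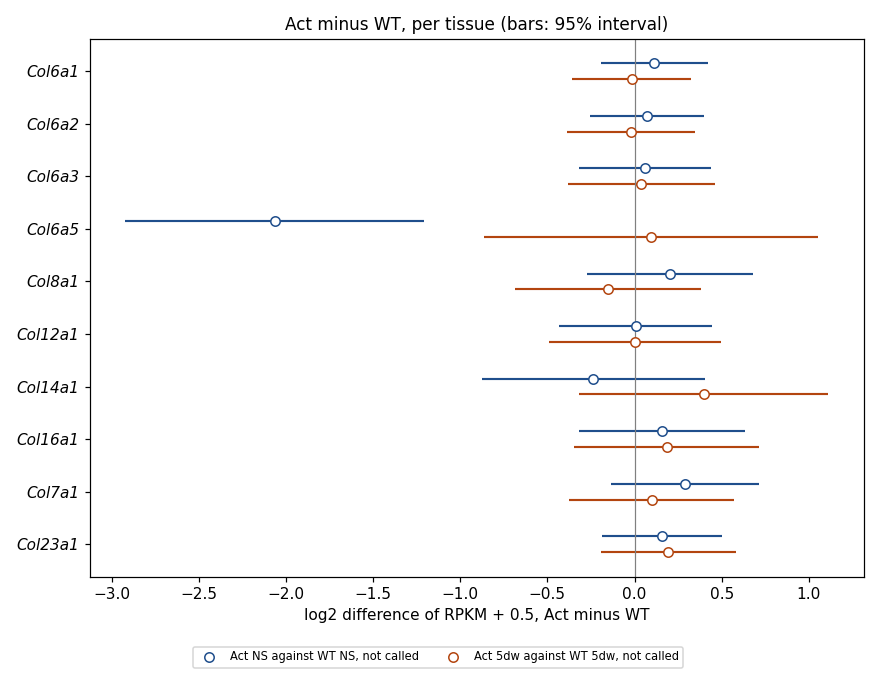
Difference of log2(RPKM + 0.5) between Act and WT for the 10 genes in NS and in 5dw, with 95% intervals from the limma fit. All points are open since none was called, and 9 of the 10 genes lie near 0 in both tissues while Col6a5 in NS lies at -2.07.

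Of 14 other chains of the same collagen classes, 13 were found and 6 were high enough to be tested. Of these, 0 rose while 4 fell in WT wounds and 3 in Act wounds, where 48.8% and 36.5% of all tested genes were called lower. In WT these were Col17a1, the transmembrane Col13a1 (-1.50, SE 0.20), the long collagen VI chain Col6a6 (-1.11, SE 0.26, adjusted p 0.00444) and, named to complete the count, the FACIT Col20a1 (-0.98, SE 0.19, adjusted p 0.00145). Col13a1 and Col20a1 were under 1 RPKM in every wound library and passed the filter through NS alone. Col6a6 was not called in Act wounds (-0.43, adjusted p 0.248). Col6a4 was at 0.251 RPKM or less in every library.

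The fibrillar chains, which give the thick fibrils their mass, were mostly higher in wounds. Of the 10 tested, 8 were called higher in both genotypes and 0 lower, where 9.45% of all tested genes were called higher in WT and 9.04% in Act. In WT these included Col27a1 (1.93, SE 0.15), Col5a1 (1.81, SE 0.20) and Col24a1 (2.97, SE 0.16), which was under 1 RPKM in every NS library and passed the filter through the wound libraries alone. The summed RPKM of the 10 microfibrillar, FACIT and anchoring genes was 1179 to 1393 in NS and 1799 to 2249 in 5dw. Their share in the summed RPKM of all collagen genes was 11.1 to 16.6% in NS and 7.87 to 8.49% in 5dw, so no wound library reached the lowest share of normal skin.

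Among 24 binding partners, receptors and processing enzymes of these collagens, 22 were tested, and in WT wounds 3 were higher and 12 lower, where 9.45% and 48.8% of all tested genes were. The 3 that rose were Bgn, the small proteoglycan biglycan that binds collagen VI (1.88, SE 0.20), Bmp1, a protease that trims procollagens including collagen VII (1.19, SE 0.15), and Itgb1, the common beta chain of the collagen-binding integrins (0.50, SE 0.13, limma adjusted p 0.00789). They were called in Act wounds as well, at 1.70, 1.25 and 0.67. The largest decreases in WT were those of Cspg4, the NG2 proteoglycan and a collagen VI receptor (-2.09, SE 0.20), Tll1, a relative of Bmp1 (-1.80, SE 0.13), and Itga3, an integrin chain that is also a keratinocyte gene (-1.64, SE 0.38, adjusted p 0.00387), which reached 1 RPKM in 1 wound library and passed the filter through NS alone. Cspg4, which is also a pericyte and smooth muscle marker, was at 0.795 to 0.895 RPKM in WT 5dw. The part of such cells in its decrease was not tested. In Act wounds 3 were higher and 9 lower, where 9.04% and 36.5% of all tested genes were, and 0 of the 22 were called between genotypes in either tissue.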

How the data were processed

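RNA of sorted fibroblasts was sequenced from poly-A libraries as 100 bp single-end reads, which the authors aligned to GRCm38 in CLC Genomics Workbench and counted per gene. The authors deposited RPKM values, while the use of strand in counting and the treatment of reads with several positions are not given in the sources used here. The authors' edgeR exact test takes counts and was not run here. Genes with at least 1 RPKM in at least 2 libraries (11979) were fitted as log2(RPKM + 0.5) with limma-trend (limma 3.58.1, R 4.3.3), with 1 mean per group over 11 libraries, 7 residual degrees of freedom and Benjamini-Hochberg adjustment. Folds and log2FCs are on this scale, which understates the change of low genes. Mapped totals and whole reads were recovered from the RPKM values and exon lengths of GENCODE M21 (79.6 to 80.7% of genes with few reads came out whole within 0.03 reads), after a test on simulated data, with lengths found from the values for Col6a5 (9421 bases, 9413 annotated) and Col8a1 (5108 bases, 7833 annotated), and were used for limma-voom. p-values measure the spread between pools of 3 animals.

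Same-numbered libraries deviated together in WT NS with Act NS (r 0.334 to 0.554) and in WT NS with WT 5dw (0.109 to 0.188), 3 pairs each, and also in Act NS with WT 5dw (0.195 to 0.263), which were not compared, so their numbers were taken to pair them, and a fit with a replicate block was an alternative. With 2 Act 5dw libraries, whose deviations mirror each other, the pairs of Act NS with Act 5dw (0.019 and 0.143) and WT 5dw with Act 5dw (-0.078 and 0.189) do not settle it. The genes and lists were chosen with earlier results of these data known. Named were the 10 genes, the 2 tested genes most like each by Pearson r, and up to 3 called genes each way per list with the largest log2FC, besides Col17a1, Inhba and Pdgfra. Some genes that this rule names are not reported here. Cd3e, Cd68, Krt6a, Krt15, Epcam, Trp63, Col6a4, Col6a6, Col8a2, Col20a1 and the sebaceous genes were named after their values were seen. So were Ptprc, Coro1a, Pecam1, Cdh5, Kdr and Tek.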

Additional observations from a re-analysis of the deposited data

How the results depend on the processing

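In the wound comparisons, 440 values of the 10 genes under 22 other settings held 0 changes of sign, 18 lost calls and 10 gained ones. Col12a1, Col8a1, Col7a1 and Col23a1 were called in all 22 in both genotypes, and Col6a5 and Col6a2 in all 22 in WT. The number called was 6 to 10 in WT and 4 to 9 in Act. With a replicate block it was 8 in WT and 5 in Act, and the paired fit changed no other call than those of Col16a1 and Col6a2. Of 650 values between genotypes and of the interaction, 63 had the other sign, all of values that were not called, and 3 were called, all of Col6a5. The number called there was 0 to 1 over left-out libraries, both in Act NS against WT NS (1 without WT NS replicate 1, and 1 without it and Act NS replicate 1) and in the interaction (1 without both).

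Over all genes, WT 5dw against WT NS gave 6978 calls, 3771 with a filter of 5 RPKM, 4373 with limma-voom (both test fewer genes) and 5791 to 7355 over left-out libraries. For Act 5dw against Act NS, these numbers were 5459, 3104, 3197 and 3509 to 6288, the lowest without Act 5dw replicate 3. Act NS against WT NS gave 2 calls, 9 without a filter, 1 with a filter of 5 RPKM, 4 without the trend, 0 with only the groups compared, 0 with limma-voom and 0 to 11 over left-out libraries. Act 5dw against WT 5dw gave 4 calls, 18 without a filter, 2 with median-ratio scaling, 2 with quantile normalization, 0 with limma-voom and 0 to 4 over left-out libraries. The interaction gave 0 calls (400 genes at an unadjusted p under 0.05), 10 without a filter, 0 with limma-voom and 0 to 2 over left-out libraries. The cause of these moves was not tested otherwise. Where an arm was left with 1 library, that library was assumed to vary like the others. Depth limits little here, since the fewest reads behind a value of the 10 genes were 222, for Col8a1 in WT NS replicate 2.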
